A study of Mus musculus with 15 samples.

Results

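The sialyltransferases St3gal1, St3gal2, St3gal3, St3gal4, St3gal5, St3gal6 and St6gal1 and the galactosyltransferases B4galt1, B4galt5 and B4galt6 were followed in blood stem and progenitor cells carrying a HOXB4 or a GFP retroviral vector. All probe sets that the platform annotation pairs with 1 of these 10 symbols were taken, which gave 24 probe sets of the 45141 in the table, which covers 17097 named genes. Part of the 10 were picked for their response. St3gal6 was selected on a lasting higher signal in HOXB4 than in GFP cells and B4galt6 on a lower one, so the values of their 9 probe sets between vectors, and those of St3gal6 between times, are given as a description with no test. The other 8 genes, with 15 probe sets, were not selected for a change and were tested. The set was, however, drawn up with earlier results of these data known.

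The cells came from mice of the background C57Bl/6, labelled female. Marrow of donors given 5-FU (5-fluorouracil, which kills cycling cells) was transduced with the vector MSCV-HOXB4-ires-YFP, or with its control MSCV-ires-GFP, and lethally irradiated mice received it. Both are murine stem cell virus vectors with a fluorescent reporter behind an internal ribosome entry site. Transduced LSK cells (lineage-negative, Sca-1+, Kit+, the marrow fraction in which blood-forming stem cells and their nearest progeny are found) were then sorted by their reporter, with no culture step. By the sample titles there were 5 groups of 3 arrays each: cells with HOXB4 sorted 6, 12 and 20 weeks after the transplant, and cells with GFP sorted after 12 and 20 weeks. The series text gives 24 weeks for the last time. The reporters differ (YFP with HOXB4, GFP alone in the controls), HOXB4 was driven by a virus in every transduced cell, both arms carry the same 5-FU, transduction and irradiation steps, and the age of the animals and any pooling are not stated. No comparison between vectors was made at 6 weeks.

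Sialyltransferases such as these cap the galactose ends of glycan chains with sialic acid. Galactosyltransferases of the B4galt family add some of the galactose on which they act. ST3Gal enzymes and ST6Gal1 attach sialic acid to different carbons of the galactose, which decides which lectins can read the chain. On blood cells such caps are part of the selectin ligands with which leukocytes and progenitors roll on vessel walls, of the ligands of Siglec receptors such as CD22 on B cells, and, on lipids, of gangliosides. B4galt5 and B4galt6 make lactosylceramide, the lipid from which gangliosides are built.

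HOX proteins bind DNA at sites with a TAAT core. The promoter sequences of the members were therefore searched, on both strands, for TAATTA, which reads the same on both, and for TGATNNAT, a form of the site shared with PBX partners. Windows of 250 bases before an annotated start, from RefSeq on GRCm38.p6, were at hand for 7 of the 10 genes, with 10 windows in all. None was at hand for St3gal1, St3gal2 or B4galt6, so promoters of genes lower in HOXB4 cells were searched only in part. TAATTA was found in 2 of the 10, 1 of the 2 windows of St3gal6 and 1 of the 3 windows of St6gal1. TGATNNAT was found in 0 of the 10. Over all 32851 windows of this length, 4.8% held TAATTA and 7.7% held TGATNNAT. The 2 windows are shown because these are the genes with higher signal in HOXB4 cells, and TAATTA is in capitals.
St3gal6: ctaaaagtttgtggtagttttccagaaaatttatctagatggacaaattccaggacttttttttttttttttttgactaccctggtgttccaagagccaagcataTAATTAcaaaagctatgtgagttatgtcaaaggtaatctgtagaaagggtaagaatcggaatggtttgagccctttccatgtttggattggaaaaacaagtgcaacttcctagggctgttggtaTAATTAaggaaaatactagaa
St6gal1: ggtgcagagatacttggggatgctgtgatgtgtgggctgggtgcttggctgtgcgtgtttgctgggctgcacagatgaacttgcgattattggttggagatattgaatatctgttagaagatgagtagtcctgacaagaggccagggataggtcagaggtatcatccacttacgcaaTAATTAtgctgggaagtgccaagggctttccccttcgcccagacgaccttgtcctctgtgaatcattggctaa
The St3gal6 window lies on the minus strand at chr16:58524254-58524503, with matches that begin 145 and 21 bases before the start. The St6gal1 window lies on the plus strand at chr16:23290220-23290469, with 1 match that begins 73 bases before the start. A match is a run of letters and says nothing of binding in these cells.

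The deposited values are log2 signals after RMA, a background correction, quantile normalisation and summary of the probes of a probe set. Array medians were 5.24 to 5.40. Since no detection calls were used, the signal of genes that marrow cells hardly use served as a yardstick: 95% of 83 probe sets of olfactory and vomeronasal receptors had a mean under 5.3, called the background level here. The LSK label was checked on marker genes. Kit had group means of 8.07 to 8.70 and Cd34 of 9.14 to 10.15, whereas Mecom, a stem cell regulator, stayed under the background level in every group (3.97 to 4.34). Of 8 LSK markers measured, 7 were above the background level in each of the HOXB4 groups and in GFP cells at 12 weeks, and 5 were in GFP cells at 20 weeks. On the first HOXB4 array of 6 weeks the control probe set for the 5′ end of Gapdh read 8.92, against 10.37 to 11.61 on the other 14 arrays. The set for its middle read 9.54, against 11.18 to 11.95, while that for its 3′ end read 12.69, the highest value. The numbers of members called between 6 weeks and a later time were the same without that array. Of all 45037 probe sets tested, 3.26% were called between HOXB4 and GFP cells at 12 weeks (adjusted p under 0.05, limma over all probe sets), 1.86% higher and 1.4% lower. At 20 weeks 6.75% were called, 2.91% higher and 3.84% lower.

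St3gal6 makes sialylated chains on glycoproteins and shares with St3gal4 the synthesis of selectin ligands on mouse leukocytes. Its brightest probe set, 1449078_PM_at, read 7.12, 7.84 and 5.61 in HOXB4 cells of 6 weeks, 8.58, 8.55 and 8.40 in those of 12 weeks and 9.74, 8.53 and 8.73 at 20 weeks. In GFP cells it read 4.85, 4.68 and 4.93 at 12 weeks and 5.06, 4.21 and 6.29 at 20 weeks. All HOXB4 arrays of 12 and 20 weeks stood above all GFP arrays, and 5 of the 6 GFP arrays lay under the background level. The group means were 6.86 ± 1.14, 8.51 ± 0.09 and 9.0 ± 0.65 in HOXB4 cells at 6, 12 and 20 weeks, against 4.82 ± 0.13 and 5.19 ± 1.05 in GFP cells at 12 and 20 weeks (SD, n = 3 each).

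The log2 difference of this probe set between HOXB4 and GFP cells was 3.69 ± 0.52 (SE) at 12 weeks, a 12.9-fold higher signal, and 3.81 ± 0.52 at 20 weeks, 14.1-fold. As the GFP signal was near or under the background level, these folds depend on a level that cannot be told from no transcript. The difference between the 2 effects, 0.13 ± 0.74, was smaller than its own error. It turned to -0.36 without the second GFP array of 20 weeks and to -0.24 without the first HOXB4 array of 20 weeks. Leaving out single arrays of the groups compared gave 3.62 to 3.74 at 12 weeks and 3.33 to 4.37 at 20 weeks. In HOXB4 cells the signal was higher by 1.65 ± 0.52 at 12 than at 6 weeks, with no overlap of arrays, and by 0.49 ± 0.52 at 20 than at 12 weeks, with overlap. In order of level, HOXB4 cells at 20 and 12 weeks were neighbours whose arrays overlapped, as were HOXB4 cells at 6 weeks and GFP cells at 20 weeks, and GFP cells at 20 and 12 weeks. The 6-week HOXB4 arrays spread over 5.61 to 7.84. In sorted cells in bulk, fewer cells of a type and less RNA per cell cannot be told apart, which holds for every difference given here.

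**Figure D1:**
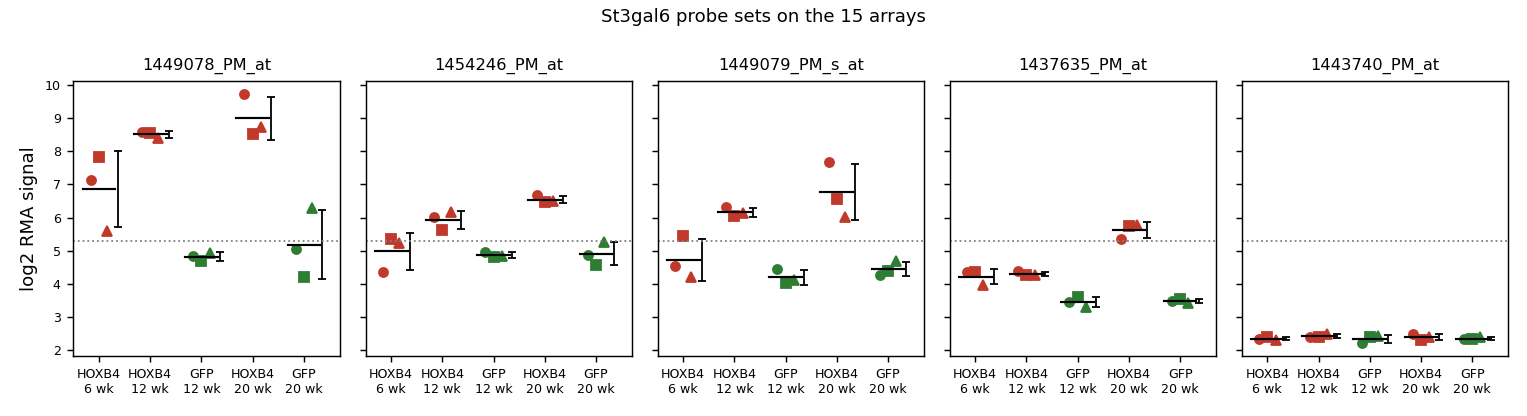
Log2 RMA signal of the 5 St3gal6 probe sets on 15 arrays by group, HOXB4 in red and GFP in green. Points are arrays (circle, square and triangle for replicates 1, 2 and 3), black lines are means, bars are SD and the dotted line is the background level of 5.3. In the first 4 panels every HOXB4 array of 12 and 20 weeks lies above the GFP arrays of its time, and in the last panel all arrays lie between 2.21 and 2.50.

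The other St3gal6 probe sets differed in how much of this they showed. 1449079_PM_s_at, whose suffix marks probes that may also match other transcripts, stood higher in HOXB4 cells, by 1.96 ± 0.35 at 12 weeks and 2.31 ± 0.35 at 20 weeks. 1454246_PM_at was higher by 1.05 ± 0.23 at 12 weeks and by 1.64 ± 0.23 at 20 weeks. Both were above the background level on 7 of 15 arrays.

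On some St3gal6 probe sets the HOXB4 arrays of 20 and 12 weeks did not overlap. The share of all probe sets without overlap between these times was not counted. The St3gal6 ones were 1454246_PM_at, higher at 20 weeks by 0.61 ± 0.23, and 1437635_PM_at, by 1.31 ± 0.14. The last read 4.35, 4.35 and 3.97 in HOXB4 cells of 6 weeks, 4.38, 4.27 and 4.26 in those of 12 weeks and 5.34, 5.76 and 5.77 at 20 weeks, against 3.46, 3.62 and 3.31 in GFP cells at 12 weeks and 3.47, 3.54 and 3.43 at 20 weeks. Its difference between vectors was 0.84 ± 0.14 at 12 weeks and 2.14 ± 0.14 at 20 weeks, and the difference between these was 1.30 ± 0.20. Only the 3 HOXB4 arrays of 20 weeks were above the background level. Which part of the transcript each probe set reads was not looked at here.

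The dimmest, 1443740_PM_at, read 2.21 to 2.50 everywhere and differed by 0.08 ± 0.10 at 12 weeks and 0.05 ± 0.10 at 20 weeks. Over the 15 arrays the 4 brighter probe sets correlated with each other with Pearson r of 0.808 to 0.929, and the dimmest with them at 0.224 to 0.5. These r values are descriptive, since the arrays fall into groups that differ. The mean over the 5 probe sets, which the dimmest pulls down, differed by 1.53 at 12 weeks and 1.99 at 20 weeks, under the 3.69 and 3.81 of the brightest.

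By a fixed rule, the genes whose brightest probe set correlated best with that of St3gal6 over the 15 arrays, of 1336 genes whose group means span at least 1 on the log2 scale, were Bfsp2 (r = 0.969), Zcchc24 (0.962), Sdc4 (0.961), Akap12 (0.957) and Gfra2 (0.953). Sdc4, a heparan sulfate proteoglycan of the cell surface, had group means of 6.47, 8.73 and 8.89 in HOXB4 cells at 6, 12 and 20 weeks, against 5.24 and 6.06 in GFP cells at 12 and 20 weeks. Gfra2, a receptor of the GDNF family, had 7.74, 9.80 and 10.19 in HOXB4 cells, against 6.26 and 7.31 in GFP cells. Both were lowest in GFP cells at 12 weeks and highest in HOXB4 cells at 20 weeks, as was St3gal6. Since both were picked by their r with St3gal6 on these arrays, this adds nothing to that r.

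St6gal1 places sialic acid on N-linked chains and makes the ligand of CD22. It was the one gene of the 8 tested that was called higher in HOXB4 cells at 12 weeks, where 2 of the 15 probe sets were called, both of St6gal1, beside the 3.26% of all probe sets. Its probe set 1420928_PM_at read 7.07, 7.02 and 5.83 in HOXB4 cells of 6 weeks, 7.66, 7.70 and 7.78 in those of 12 weeks and 8.28, 7.73 and 7.86 at 20 weeks. In GFP cells it read 5.65, 5.62 and 5.05 at 12 weeks and 7.14, 5.82 and 7.85 at 20 weeks. At 12 weeks no arrays overlapped and at 20 weeks the third GFP array reached the HOXB4 range.

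The difference of 1420928_PM_at was 2.27 ± 0.41 at 12 weeks, a 4.84-fold higher signal (limma adjusted p = 0.0102). At 20 weeks it was 1.02 ± 0.41 (limma adjusted p = 0.173), with a 95% interval of 0.14 to 1.90, and did not pass the test. Without the third GFP array of 20 weeks it was 1.48 (adjusted p = 0.0346 by limma), and without the third GFP array of 12 weeks the 12-week value was 2.08 (adjusted p = 0.0576 by limma). In GFP cells the signal was higher at 20 than at 12 weeks by 1.5 ± 0.41, which did not pass (limma adjusted p = 0.0995).

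The second probe set, 1420927_PM_at, read 4.56, 5.17 and 4.80 in HOXB4 cells of 6 weeks, 6.51, 6.08 and 6.39 in those of 12 weeks and 6.2, 6.40 and 5.86 at 20 weeks, against 4.52, 4.39 and 4.72 in GFP cells at 12 weeks and 5.63, 4.66 and 5.47 at 20 weeks. The HOXB4 arrays lay above the GFP arrays at both times. It was higher in HOXB4 cells by 1.78 ± 0.23 at 12 weeks (limma adjusted p = 0.00215) and by 0.90 ± 0.23 at 20 weeks (limma adjusted p = 0.0318). The call at 20 weeks was lost without the second GFP array of 20 weeks, where the difference was 0.60 (limma adjusted p = 0.143), and without the first or second HOXB4 array of 20 weeks (limma adjusted p = 0.0703 and 0.102). In HOXB4 cells this probe set rose after 6 weeks, by 1.48 ± 0.23 at 12 weeks (limma adjusted p = 0.00764) and by 1.31 ± 0.23 at 20 weeks (limma adjusted p = 0.0102). Its HOXB4 arrays of 6 weeks and GFP arrays of 12 weeks all lay under the background level, and 8 of 15 arrays were above it. The brighter 1420928_PM_at rose by 1.07 ± 0.41 and 1.32 ± 0.41 and did not pass (limma adjusted p = 0.175 and 0.0902). Of the 15 probe sets, 1420927_PM_at was the 1 called for each of these times. Beside it stood 3.07% of all probe sets for 12 against 6 weeks and 3.77% for 20 against 6 weeks. The difference between the vector effects at 20 and 12 weeks, -0.88 ± 0.33, was not called (limma adjusted p = 0.418), nor was -1.25 ± 0.58 for the other probe set (limma adjusted p = 0.562).

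Markers of the B lineage moved with St3gal6 and St6gal1 in the main, but Ighm was not higher with HOXB4 at 20 weeks. Of 10 measured, 8 were called higher in HOXB4 cells at 12 weeks (median log2 difference 3.38) and 2 at 20 weeks (median 2.15), and none was called lower. Their mean level per array was 7.92, 8.67 and 5.92 in HOXB4 cells of 6 weeks, 9.10, 8.54 and 9.07 in those of 12 weeks and 9.82, 9.03 and 9.02 at 20 weeks. In GFP cells it was 5.72, 5.95 and 5.99 at 12 weeks and 7.48, 6.65 and 8.54 at 20 weeks. All 10 were above the background level in the mean of each group except GFP cells at 12 weeks, where 6 were. Vpreb1 codes for part of the surrogate light chain of early B cells. In HOXB4 cells its group means were 10.06, 11.47 and 11.88 at 6, 12 and 20 weeks. GFP cells had 7.72 and 9.5 at 12 and 20 weeks. Ighm differed between vectors by 3.42 ± 0.39 at 12 weeks (limma adjusted p = 0.00089) and by -0.53 ± 0.39 at 20 weeks (limma adjusted p = 0.495). The difference between these effects, -3.96 ± 0.55, was called (limma adjusted p = 0.00497). In GFP cells Ighm rose by 4.23 ± 0.39 at 20 against 12 weeks (limma adjusted p = 7.86e-05).

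The third 6-week HOXB4 array, lowest of its group for these markers, was also lowest for 1449078_PM_at of St3gal6 (5.61) and 1420928_PM_at of St6gal1 (5.83). It was lowest too for 1449079_PM_s_at (4.21) and 1437635_PM_at (3.97) of St3gal6. The same array was also lowest of its group for the neutrophil markers (4.94, with 7.15 and 6.98 on the others). On B4galt6, which was lower with HOXB4, it was lowest on each probe set (5.55, 4.84, 4.68 and 4.0). The third array was not the lowest for 1454246_PM_at of St3gal6 (5.24, with 4.35 on the first array) or for 1420927_PM_at of St6gal1 (4.80, with 4.56 on the first). That first array is the one with the low signal for the 5′ end of Gapdh. The third GFP array of 20 weeks, highest of its group for the markers, was highest for 1449078_PM_at (6.29) and 1420928_PM_at (7.85). So it was for 1454246_PM_at (5.27) and 1449079_PM_s_at (4.69) of St3gal6. There 1420927_PM_at was highest on the first array (5.63, with 5.47 on the third), and 1437635_PM_at of St3gal6 was lowest on the third (3.43). The probe sets thus differed in how their arrays lined up with the markers.

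Some markers of other cells were also higher with HOXB4, not always at both times. Of 8 megakaryocyte markers, 1 was called higher in HOXB4 cells at 12 weeks and 5 at 20 weeks, and none lower. At 12 weeks their mean level spanned 7.05 to 7.13 in HOXB4 cells, against 6.38 to 6.67 in GFP cells, and at 20 weeks 6.35 to 7.45 with HOXB4, against 5.31 to 5.73 with GFP. Of 4 mast cell and basophil markers, 1 was higher and 1 lower at 12 weeks, and 2 were higher and 1 lower at 20 weeks. At 12 weeks their mean level spanned 6.95 to 7.22 in HOXB4 cells, against 6.89 to 7.21 in GFP cells, and at 20 weeks 7.04 to 8.15, against 6.13 to 6.51, for the same vectors. Of 9 neutrophil markers, 1 was called higher in HOXB4 cells at 12 weeks and 5 lower at 20 weeks. Their mean level spanned 7.77 to 8.27 in HOXB4 cells at 12 weeks, against 6.37 to 7.11 in GFP cells. At 20 weeks it spanned 6.26 to 7.49, against 9.18 to 9.27. The part of B lineage, megakaryocyte, mast or neutrophil cells in the differences of St3gal6 and St6gal1 was not tested.

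**Figure D2:**
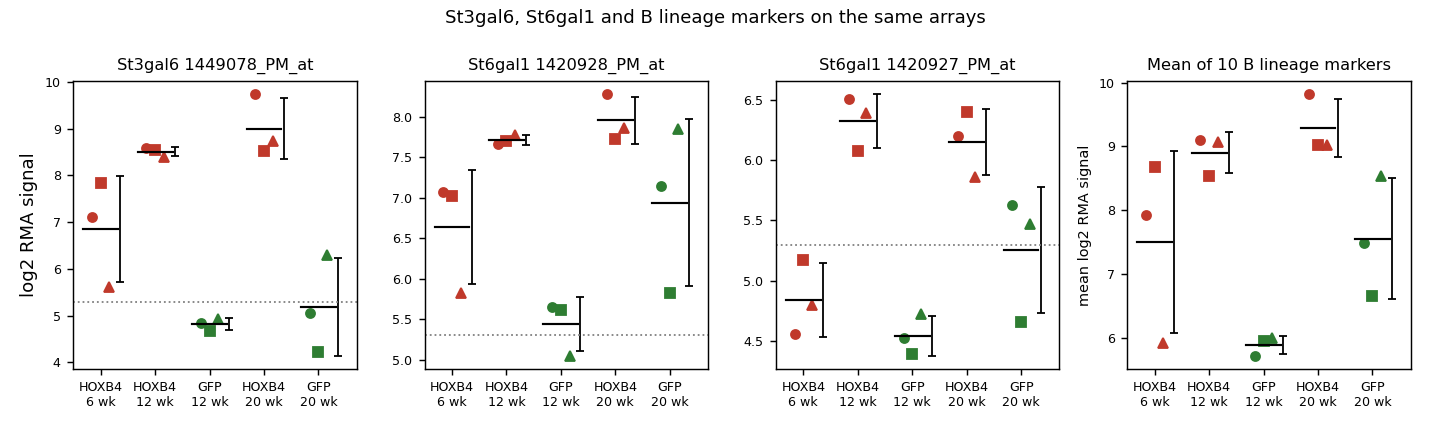
Log2 RMA signal of St3gal6 and of both St6gal1 probe sets, and the mean log2 signal of 10 B lineage markers, on the same 15 arrays by group. Points are arrays (circle, square and triangle for replicates 1, 2 and 3), lines are means, bars are SD and the dotted line is the background level of 5.3. The third 6-week HOXB4 array is the lowest of its group for St3gal6, 1420928_PM_at and the markers, and the third 20-week GFP array is the highest of its group for these.

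St3gal2, which acts on O-linked chains and gangliosides, was lower in HOXB4 cells than in GFP cells at 20 weeks on 1 of its 3 probe sets. 1421891_PM_at read 6.31, 6.34 and 6.41 in HOXB4 cells at 20 weeks, against 7.33, 7.49 and 7.07 in GFP cells. At 12 weeks it read 6.32, 6.22 and 5.97 in HOXB4 cells, against 6.68, 7.06 and 6.22 in GFP cells, and at 6 weeks 6.47, 5.94 and 5.84 in HOXB4 cells. The groups were apart at 20 weeks and met at 12 weeks. The difference was -0.94 ± 0.20 at 20 weeks (limma adjusted p = 0.0111) and -0.48 ± 0.20 at 12 weeks (limma adjusted p = 0.221). Without the second GFP array of 20 weeks it was -0.85 (limma adjusted p = 0.0631). The other 2 probe sets differed at 20 weeks by -0.59 ± 0.18 (limma adjusted p = 0.0721) and -0.28 ± 0.17 (limma adjusted p = 0.404).

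St3gal4, an enzyme of N-linked chains that also builds selectin ligands in mice, has 1 probe set, 1425668_PM_a_at. It read 4.51, 4.83 and 4.51 in HOXB4 cells at 20 weeks, against 5.01, 5.59 and 5.40 in GFP cells. It read 4.18, 4.48 and 4.64 in HOXB4 cells at 6 weeks and 4.38, 4.67 and 5.09 at 12 weeks, against 5.06, 5.12 and 5.08 in GFP cells at 12 weeks. The arrays of 20 weeks did not overlap, but only 2 of the 15 arrays, both of GFP cells at 20 weeks, were above the background level. The difference was -0.72 ± 0.19 at 20 weeks (limma adjusted p = 0.0327) and -0.37 ± 0.19 at 12 weeks (limma adjusted p = 0.308). Leaving out the second or the third GFP array, or the first or the third HOXB4 array, of 20 weeks took the call away (values of -0.59 to -0.68, limma adjusted p = 0.0787 to 0.159).

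With the higher probe set of St6gal1, 3 of the 15 tested probe sets were called at 20 weeks, 1 higher and 2 lower, beside 6.75% of all probe sets. Over the 15 the median log2 difference was 0.03 at 12 weeks and -0.17 at 20 weeks, and over all probe sets tested 0.00 and 0.04. With an unadjusted p under 0.05 there were 5 of the 15 at 12 weeks, beside 18.3% of all probe sets, and 8 at 20 weeks, beside 20.3%. For the difference between the vector effects at 20 and 12 weeks 0 of the 15 were called by limma, and 0.289% of all probe sets were. With an unadjusted p under 0.05 there were 3, beside 8.83% of all probe sets.

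The other sialyltransferases of the group did not pass the test between vectors at either time. St3gal1, an enzyme of O-linked chains, had group means of 8.64 to 9.01 in HOXB4 cells and 8.53 to 8.65 in GFP cells on 1418946_PM_at. Its HOXB4 arrays lay above the GFP arrays at 20 weeks by 0.48 ± 0.19 (limma adjusted p = 0.162, 95% interval 0.07 to 0.89), and its second probe set by 0.43 ± 0.19 (limma adjusted p = 0.220). The mean of both probe sets, 0.46, passed at 20 weeks (adjusted p = 0.0283 by limma).

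St3gal3, an enzyme of N-linked chains, differed at 12 weeks by -0.33 ± 0.17 on its brighter probe set (limma adjusted p = 0.318, 95% interval -0.68 to 0.03) and by -0.59 ± 0.18 on the other (limma adjusted p = 0.0955). At 20 weeks both were within 0.04 of 0, with intervals of -0.34 to 0.37 and -0.43 to 0.36. The mean of both passed at 12 weeks with -0.46 (adjusted p = 0.0461 by limma). St3gal5, which makes the ganglioside GM3 from lactosylceramide, had 95% intervals of -0.43 to 0.49 at 12 weeks and -0.67 to 0.25 at 20 weeks on 1449198_PM_a_at, around differences of 0.03 and -0.21. Its second probe set differed by 0.06 ± 0.13 and -0.17 ± 0.13.

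B4galt6 makes lactosylceramide. All 4 of its probe sets were dimmer in HOXB4 than in GFP cells at both times, the contrast on which it was selected. 1423228_PM_at read 6.09, 6.34 and 5.55 in HOXB4 cells of 6 weeks, 5.61, 4.96 and 5.49 in those of 12 weeks and 5.52, 5.95 and 4.91 at 20 weeks. In GFP cells it read 7.33, 7.14 and 7.50 at 12 weeks and 8.36, 8.66 and 7.95 at 20 weeks. No HOXB4 array reached a GFP array, and 2 of the 9 HOXB4 arrays were under the background level. Means were 5.99 ± 0.40, 5.36 ± 0.35 and 5.46 ± 0.52 in HOXB4 cells at 6, 12 and 20 weeks, against 7.32 ± 0.18 and 8.32 ± 0.35 in GFP cells at 12 and 20 weeks (SD, n = 3 each).

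The difference between HOXB4 and GFP cells was -1.97 ± 0.27 at 12 weeks, a 3.92-fold lower signal, and -2.86 ± 0.27 at 20 weeks, 7.26-fold lower. Leaving out single arrays of the groups compared gave -2.10 to -1.77 at 12 weeks and -3.10 to -2.59 at 20 weeks. The difference between the 2 effects was -0.89 ± 0.38. In order of level, the GFP arrays of 20 weeks stood above those of 12 weeks and these above the HOXB4 arrays of 6 weeks with no overlap, whereas the HOXB4 arrays of 6, 20 and 12 weeks overlapped.

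The other 3 probe sets gave differences of -2.20 ± 0.45 (1460329_PM_at), -2.05 ± 0.31 (1450913_PM_at) and -1.20 ± 0.30 (1435758_PM_at) at 12 weeks. At 20 weeks they gave -3.47 ± 0.45, -2.87 ± 0.31 and -2.42 ± 0.30 in the same order. The difference was larger in size at 20 than at 12 weeks on each of the 4. Over the 15 arrays the 4 correlated with each other at r of 0.912 to 0.973, a description of arrays that fall into groups. The mean over the 4 differed by -1.86 at 12 weeks and -2.91 at 20 weeks.

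**Figure D3:**
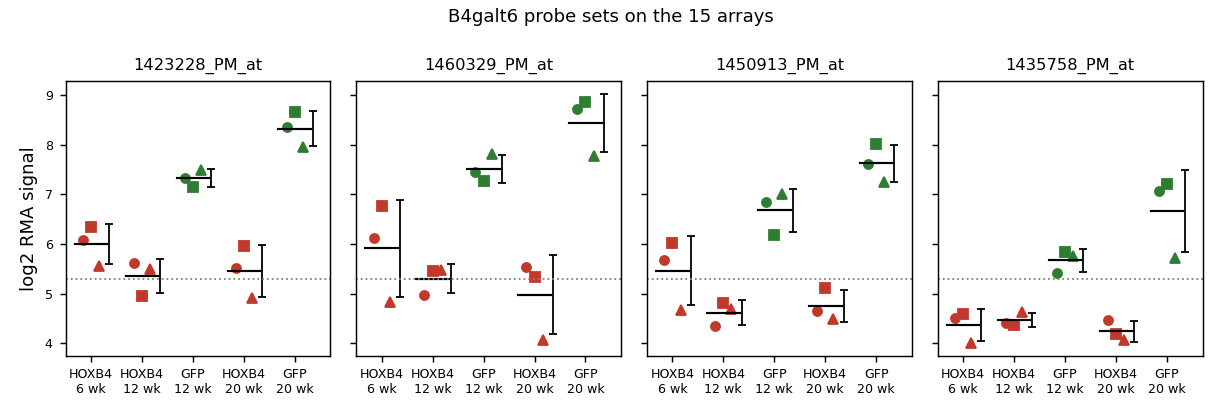
Log2 RMA signal of the 4 B4galt6 probe sets on 15 arrays by group, HOXB4 in red and GFP in green. Points are arrays (circle, square and triangle for replicates 1, 2 and 3), black lines are means, bars are SD and the dotted line is the background level of 5.3. Every HOXB4 array lies below every GFP array of 12 and 20 weeks on 1423228_PM_at, where GFP cells of 20 weeks are the highest group.

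Comparisons of B4galt6 between times share arrays with that contrast. In GFP cells its signal was higher at 20 than at 12 weeks by 1.0 ± 0.27 on 1423228_PM_at (limma adjusted p = 0.0911), and by 0.94, 0.95 and 0.99 on the others (limma adjusted p = 0.136 to 0.432). None passed the test. In HOXB4 cells the same probe set differed by -0.64 ± 0.27 at 12 against 6 weeks (limma adjusted p = 0.220), by 0.11 ± 0.27 at 20 against 12 weeks (limma adjusted p = 0.923) and by -0.53 ± 0.27 at 20 against 6 weeks (limma adjusted p = 0.288).

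Genes most like B4galt6 over the 15 arrays by the same rule were Nhsl2 (r = 0.971), Ms4a6c (0.968), Rassf4 (0.967), Lbp (0.960) and Rab32 (0.959). Ms4a6c, a membrane protein gene of myeloid cells, had group means of 7.21, 6.87 and 6.57 in HOXB4 cells at 6, 12 and 20 weeks, against 8.33 and 9.47 in GFP cells at 12 and 20 weeks. Lbp, which codes for the lipopolysaccharide-binding protein, had 6.89, 6.29 and 6.05 in HOXB4 cells, against 7.65 and 8.69 in GFP cells.

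Granulocyte progenitor markers, like B4galt6, were lower in HOXB4 than in GFP cells. Of 5 measured, 4 were called lower in HOXB4 cells at 12 weeks and 5 at 20 weeks, with median log2 differences of -1.92 and -3.40. Their mean level spanned 9.47 to 10.62 in HOXB4 cells at 6 weeks, 9.01 to 9.56 at 12 weeks and 7.96 to 9.23 at 20 weeks, against 10.96 to 11.22 in GFP cells of 12 weeks and 11.26 to 11.92 in those of 20 weeks. In HOXB4 cells their group mean was 9.3 at 12 and 8.47 at 20 weeks, while 1423228_PM_at had 5.36 and 5.46. At 20 weeks the second HOXB4 array was highest for 1423228_PM_at (5.95) and 1450913_PM_at (5.12) and lowest for the markers (7.96). There 1460329_PM_at (5.53) and 1435758_PM_at (4.47) were highest on the first, as were the markers (9.23). In HOXB4 cells of 6 weeks each B4galt6 probe set was lowest on the third array, and the markers were lowest on the first (9.47). In GFP cells of 20 weeks the third was lowest for each B4galt6 probe set (7.95 on 1423228_PM_at) and for the markers (11.26). Of 6 monocyte and macrophage markers, 0 were called at 12 weeks and 3 were lower in HOXB4 cells at 20 weeks, where their mean level was 5.46 to 5.69 in HOXB4 cells and 6.64 to 6.93 in GFP cells. Of 9 neutrophil markers, 5 were called lower in HOXB4 cells at 20 weeks and 1 higher at 12 weeks. The part of such cells in the B4galt6 difference was not tested.

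B4galt5, the other lactosylceramide synthase, did not pass the test. On 1421967_PM_at it read 6.26, 6.84 and 6.98 in HOXB4 cells of 6 weeks, 6.99, 7.27 and 7.46 in those of 12 weeks and 7.33, 7.04 and 7.37 at 20 weeks, against 7.76, 7.72 and 8.01 in GFP cells at 12 weeks and 7.29, 7.49 and 7.54 at 20 weeks. The arrays were apart at 12 weeks and overlapped at 20 weeks. The difference was -0.59 ± 0.18 at 12 weeks (limma adjusted p = 0.0916, 95% interval -0.97 to -0.20) and -0.20 ± 0.18 at 20 weeks (limma adjusted p = 0.600, 95% interval -0.58 to 0.19). The 12-week value passed in a fit of only the 2 groups compared (adjusted p = 0.0291 by limma) and with array weights (-0.54, limma adjusted p = 0.0198). Its second probe set differed by -0.34 ± 0.19 at 12 weeks and by 0.00 ± 0.19 at 20 weeks, with 95% intervals of -0.74 to 0.06 and -0.40 to 0.40. B4galt1, the main galactosyltransferase of N-linked chains, differed by 0.23 ± 0.18 at 12 weeks (limma adjusted p = 0.526) and by -0.41 ± 0.18 at 20 weeks (limma adjusted p = 0.201, 95% interval -0.79 to -0.03).

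**Figure D4:**
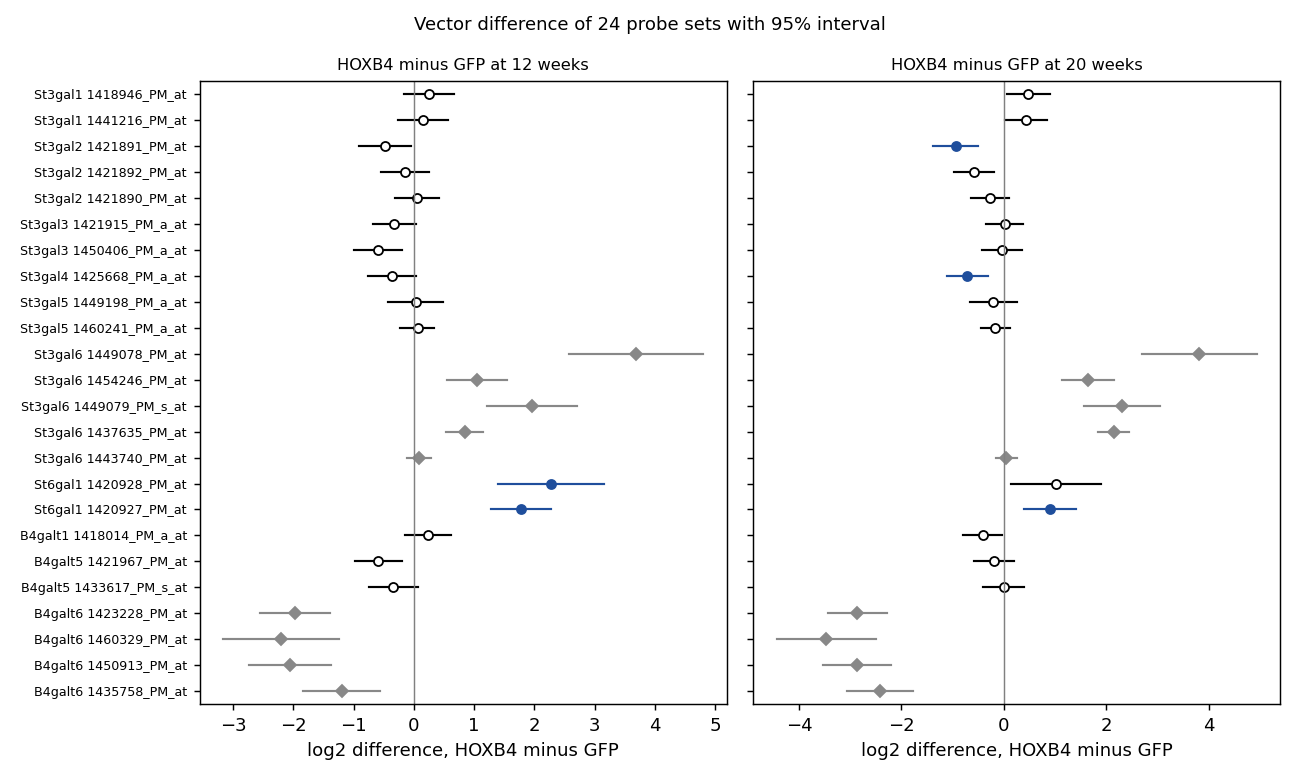
Log2 difference of all 24 probe sets, HOXB4 minus GFP, at 12 weeks (left) and 20 weeks (right), with 95% intervals. Grey diamonds are St3gal6 and B4galt6, given as a description, filled blue circles passed the test and open circles did not. The diamonds of St3gal6 lie above 0 except for 1443740_PM_at at about 0, those of B4galt6 lie below 0, and the called probe sets of the other genes are both of St6gal1 at 12 weeks and, at 20 weeks, 1420927_PM_at of St6gal1, 1421891_PM_at of St3gal2 and that of St3gal4.

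Between times, limma called 0 of the 15 probe sets in HOXB4 cells at 20 against 12 weeks, and 0.369% of all probe sets. With an unadjusted p under 0.05 there were 3, beside 12.6% of all. These 3 were the 2 of St3gal5, with differences of -0.48 and -0.40 (limma adjusted p = 0.371 and 0.219), and that of B4galt1, with -0.45 (limma adjusted p = 0.294). The arrays of both times did not overlap for any of them, and the share of all probe sets without overlap was not counted. In GFP cells at 20 against 12 weeks limma also called 0 of the 15, and 1.54% of all probe sets. With an unadjusted p under 0.05 there were 5, beside 12% of all.

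Other genes of the same chemistry were read from fixed lists, 1 probe set a gene, for which 3.54% of 17097 genes were called between vectors at 12 weeks and 8.01% at 20 weeks. Of 12 other sialyltransferases, 1 was called lower in HOXB4 cells at 12 weeks, and 1 higher and 1 lower at 20 weeks. St6galnac4, which adds a second sialic acid to O-linked chains, was lower in HOXB4 cells than in GFP cells, with differences of -0.82 at 12 weeks and -1.07 at 20 weeks (limma adjusted p = 0.00716 and 0.000266). St6galnac3, an enzyme of the same subfamily, was higher by 1.34 ± 0.23 at 20 weeks (limma adjusted p = 0.00263). The St6galnac3 signal of the GFP cells was 4.72, 5.47 and 5.12 at 20 weeks and 6.46, 6.13 and 6.57 at 12 weeks, a difference of -1.28 ± 0.23 (limma adjusted p = 0.0107), while HOXB4 cells had means of 6.39 to 6.47.

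Of 11 other galactosyltransferases, 1 was called higher and 1 lower at 12 weeks, and 1 higher and 2 lower at 20 weeks. C1galt1, which starts the core 1 O-linked chain, was higher in HOXB4 cells by 0.87 ± 0.14 at 12 weeks (limma adjusted p = 0.00701) and 1.11 ± 0.14 at 20 weeks (limma adjusted p = 0.000315). C1galt1c1, the chaperone that C1galt1 needs, went the other way at 20 weeks. It read 6.80, 6.58 and 7.09 in HOXB4 cells at 20 weeks, against 9.08, 9.12 and 8.05 in GFP cells, a difference of -1.93 ± 0.26 (limma adjusted p = 0.000429). HOXB4 cells had means of 6.48, 6.52 and 6.82 at 6, 12 and 20 weeks, while GFP cells went from 7.06 at 12 weeks to 8.75 at 20 weeks. B4galt4, a sister gene of B4galt6, was lower in HOXB4 cells than in GFP cells, with differences of -0.90 ± 0.17 at 12 weeks and -0.72 ± 0.17 at 20 weeks (limma adjusted p = 0.0126 and 0.0196).

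The glycosphingolipid list, which holds the steps around the product of B4galt6, had 0 of 12 called at 12 weeks and 5 of 12 lower in HOXB4 cells at 20 weeks (medians of -0.21 and -0.52, against -0.02 and 0.02 over all genes). B4galnt1, which extends GM3 to the complex gangliosides, differed by -1.02 ± 0.18 (limma adjusted p = 0.00297). The other 3 named here break glycolipids down in lysosomes: Hexa differed by -1.20 ± 0.17 (limma adjusted p = 0.000709), Gla by -1.45 ± 0.25 (limma adjusted p = 0.00297) and Galc by -0.93 ± 0.22 (limma adjusted p = 0.0200). Ugcg, which makes the glucosylceramide that B4galt5 and B4galt6 extend, differed by -0.10 ± 0.19 at 20 weeks (limma adjusted p = 0.827).

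Of 18 genes of selectin ligand synthesis and carriers, 1 was called lower in HOXB4 cells at 12 weeks, Cd34 (-0.75 ± 0.13, limma adjusted p = 0.00918). In GFP cells Cd34 had means of 10.15 at 12 weeks and 9.35 at 20 weeks (limma adjusted p = 0.00704), while HOXB4 cells had 9.14 to 9.39. At 20 weeks 2 of the 18 were lower in HOXB4 cells. They were the fucosyltransferase gene Fut4 (-0.74 ± 0.16, limma adjusted p = 0.0105) and Glg1, the gene of an E-selectin ligand (-0.52 ± 0.13, limma adjusted p = 0.0293). Fut7, which completes sialyl Lewis x, differed by -0.28 and -0.23, and Selplg, the gene of PSGL-1, by -0.01 and -0.19 at 12 and 20 weeks, and none of these passed (limma adjusted p of 0.280 to 0.986).

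Of 11 genes of sialic acid supply and removal, Gne, which starts sialic acid synthesis, was lower at 12 weeks (-0.79 ± 0.18, limma adjusted p = 0.0263) and Cmah, which turns one form of sialic acid into another, was higher at 20 weeks (1.23 ± 0.34, limma adjusted p = 0.0416). In HOXB4 cells Cmah rose after 6 weeks by 1.52 ± 0.34 at 12 weeks and 1.96 ± 0.34 at 20 weeks (limma adjusted p = 0.0289 and 0.00861). Of 7 genes of galactose supply 0 were called by limma at either time.

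Among the readers of these chains, 1 of 7 Siglec genes was called. Cd33 was higher in HOXB4 cells by 1.63 ± 0.35 at 12 weeks and 2.10 ± 0.35 at 20 weeks (limma adjusted p = 0.0219 and 0.00195). It read 7.84, 7.60 and 7.36 in HOXB4 cells at 20 weeks, against 4.92, 4.98 and 6.61 in GFP cells. Of 8 galectins and galactose readers, Lgals3 was lower in HOXB4 cells than in GFP cells, with differences of -1.05 ± 0.26 at 12 weeks and -2.41 ± 0.26 at 20 weeks (limma adjusted p = 0.0433 and 8.87e-05), and Lgals9 was higher by 1.04 ± 0.24 at 20 weeks (limma adjusted p = 0.0184). Lgals3 read 5.82, 5.70 and 5.14 in HOXB4 cells at 20 weeks, against 7.63, 8.01 and 8.26 in GFP cells. In GFP cells it rose by 1.63 ± 0.26 at 20 against 12 weeks (limma adjusted p = 0.00551).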

How the data were processed

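Per the labels' protocols, 20 ng of total RNA of sorted, uncultured cells were amplified and biotin-labelled with NuGEN reagents and hybridised to 15 arrays. The authors' deposited values are on the log2 scale. Per the submitters' processing notes, RMA and Partek 6.5 were used. Filters and centring are not given in the sources used here, and the number of arrays limits the precision. Of 45141 probe sets, 104 controls were left out and 45037 tested. Symbols came from the platform annotation, updated through the gene identifier: 28898 probe sets had 1 symbol, 551 several and 15588 were not listed. RefSeq GRCm38.p6 gave promoter sequences. No protein sequences were used.

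A mean per group was fitted over 15 arrays with limma 3.58.1 in R 4.3.3 (10 residual and 4.31 prior degrees of freedom), for 7 comparisons, two-sided, with Benjamini-Hochberg adjustment over all 45037 and calls at an adjusted p under 0.05. The script was tested on simulated data. Whether the 3 arrays of a group stand for separate mice is not stated, so the p-values cover array-to-array spread, possibly technical. An exact permutation test of 3 against 3 arrays cannot go below 0.1. Same-numbered arrays of different groups did not deviate together (correlations of -0.15 to 0.106 over 30 pairs), so replicate numbers were not used as pairs.

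The members and lists were chosen with earlier results of these data known. Every probe set of the 10 genes is reported, the brightest of a gene being its reference. Per list and comparison up to 4 called genes with the smallest p could be named, and genes named beside these without a call (Ugcg, Fut7, Selplg) were chosen for their place in the pathway. The 5 genes with the highest Pearson r were named for likeness. Alternatives were quantile normalisation, median centring, other probe set choices, a filter on dim probe sets, other moderation, array weights, a replicate block, a fit on the groups compared and leaving out each array.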

Additional observations from a re-analysis of the deposited data

How the results depend on the processing

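The number of the 15 tested probe sets called (19 with B4galt6 between times) was 2 at 12 weeks and 3 at 20 weeks between HOXB4 and GFP cells, 1 for HOXB4 at 12 and at 20 against 6 weeks and 0 for the other 3 comparisons. With array weights it was 4 at 12 weeks, 1 at 20 weeks, 0 for HOXB4 20 against 6 weeks and 8 for GFP 20 against 12 weeks. With only the groups compared it was 4, 1, 0 and 1 in the same order. For GFP 20 against 12 weeks the 694 calls over all probe sets became 3387 with array weights and 1041 with only the groups compared, and for HOXB4 20 against 6 weeks the 1700 became 403 and 7. Without moderation it was 1 at 12 weeks and 1 at 20 weeks. With 1 probe set a gene, which leaves fewer to test, it was 1 at 12 weeks and 0 for HOXB4 at 12 and at 20 against 6 weeks. Leaving out 1 array gave 1 to 3 at 12 weeks, 0 to 4 at 20 weeks (0 without the second GFP array of 20 weeks), 1 to 2 for HOXB4 12 against 6 and for 20 against 6 weeks, and 0 to 2 for GFP 20 against 12 weeks. A fit with the replicate block gave 3 at 12 weeks and 2 at 20 weeks, and 0.90 (limma adjusted p = 0.0501) for 1420927_PM_at of St6gal1 at 20 weeks, which lost its call. It changed no other count of members called. Over all probe sets the 1467 calls at 12 weeks became 5904 with array weights, 4981 with only the groups compared and 648 without moderation, and 309 to 2080 without 1 array. The 3038 at 20 weeks became 1190 with only the groups compared, 1936 without moderation, and 1478 to 3644 without 1 array. The 20-week calls of St3gal4 (limma adjusted p = 0.0811, 0.121 and 0.089) and of 1420927_PM_at (0.09, 0.0517 and 0.137) were lost without moderation, with array weights and with only the groups compared. The cause was not tested. No called difference of a tested member turned its direction under these settings. Signals under the background level limit St3gal4, the GFP values of St3gal6 and the dim probe sets.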
